A study of Mus musculus with 12 samples.

Results

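The insulin-like growth factor gene Igf1, its receptor gene Igf1r and 6 binding protein genes, Igfbp2 to Igfbp7, were followed in the urogenital sinus of fetal mice. They were chosen by symbol alone and make up 8 of the 56495 genes in the deposited expression table. All 8 passed the filter on low values and stand among the 13904 genes tested. The 12 RNA sequencing libraries came from E18.5 embryos and fell into 4 groups of 3 by sex and genotype. The genotypes were wild type and Inv(Itga6-nsi)d11lac, here the mutant. By its name this chromosome carries an inversion with 1 end at Itga6 and the other at nsi. The zygosity of the mutants, the d11lac allele and the number of embryos behind a library are not described in the labels, so each p rests on the spread among these libraries alone, which may be technical. The bladder had been removed and the proximal urethra kept, and the female samples also held the vagina. Sex and the amount of vaginal tissue therefore cannot be told apart. The study title places the data in a question about how the HoxD regulatory landscape came to serve digits and genitals.

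IGF1 is a secreted growth factor that signals through the receptor tyrosine kinase IGF1R to PI3K and promotes growth and survival of cells. In the urogenital sinus and the prostate it is known mainly as a product of the stroma that acts on the epithelium. IGF binding proteins hold IGF1 and IGF2 outside the cell, where they can prolong the life of the ligand or keep it from the receptor, and proteases that cut them set the ligand free.

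The values are FPKM, fragments per length of gene and per size of library, here also scaled between libraries by their median ratio. The depth relative to the deepest library was 0.81 to 1 for wild type and 0.582 to 0.717 for mutants, so depth and genotype cannot be told apart. Hoxd13, the terminal gene of the HoxD cluster, stood at 15.1 to 20.5 scaled FPKM in wild type (6 libraries) and at 3.15 to 6.23 in mutants (6 libraries). The 7 marker genes of the urogenital sinus include Hoxd13 itself and share Shh and Foxa1 with the epithelium markers. All 7 passed the filter, with a summed level of 56.8 to 82.7 scaled FPKM in 11 libraries and 30.8 in the library mutant female 1. That library stood apart in other ways. Its 9 mesenchyme markers summed to 2653 scaled FPKM against 3257 to 5426 in the other 11 libraries, its 7 endothelium markers to 62.3 against 97.4 to 130.4, and its 9 epithelium markers to 922 against 288 to 554. For the IGF1, receptor and binding protein genes followed here, counts of called genes and some test results are therefore also given without that library. Test results for the marker lists and for other genes of the IGF system are given only with it, so they may rest on it. In such whole-tissue RNA, fewer cells of a type and less RNA per cell cannot be told apart.

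The 8 genes lie on 6 chromosomes. In the positions of the table (mm39), Igf1 lies at chr10:87694127-87772904 on the plus strand and Igf1r at chr7:67602575-67883416 on the plus strand. Igfbp2 (chr1:72863662-72891633, plus strand) and Igfbp5 (chr1:72897091-72914043, minus strand) are neighbours whose ends face each other across 5457 bases. Igfbp3 (chr11:7156086-7163923, minus strand) has the binding protein gene Igfbp1 3539 bases away. Igfbp4 lies on the same chromosome at chr11:98932070-98945218 (plus strand), Igfbp6 at chr15:102052797-102057946 (plus strand) and Igfbp7 at chr5:77497087-77555888 (minus strand). Igfbp7 overlaps Polr2b on the other strand, which reached 32.2 FPKM, and the strand setting of the counting was not given in the sources used here, so the values of Igfbp7 are uncertain. Igf1 overlaps Igf1os, which was at most 0.127 FPKM.

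The 5 genes with a called difference are shown by the 250 bases before their start, because they differed by genotype or by sex in different combinations. Capitals mark matches on either strand to a TATA box (TATAAA, or TTTATA on the other strand), a GC box (GGGCGG or CCGCCC), a half-site of the androgen receptor (AGAACA or TGTTCT) and a CCAAT box (CCAAT or ATTGG). The sequences are from RefSeq with positions in GRCm38.p6, a different build from the positions above, and run in the direction of transcription.
Igf1r, chr7:67952007-67952256, plus strand: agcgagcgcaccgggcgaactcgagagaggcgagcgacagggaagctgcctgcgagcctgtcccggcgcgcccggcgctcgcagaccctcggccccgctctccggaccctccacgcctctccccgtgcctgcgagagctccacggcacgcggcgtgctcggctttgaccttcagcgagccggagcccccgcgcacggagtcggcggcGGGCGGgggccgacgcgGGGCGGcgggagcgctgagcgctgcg
Igfbp2, chr1:72824230-72824479, plus strand: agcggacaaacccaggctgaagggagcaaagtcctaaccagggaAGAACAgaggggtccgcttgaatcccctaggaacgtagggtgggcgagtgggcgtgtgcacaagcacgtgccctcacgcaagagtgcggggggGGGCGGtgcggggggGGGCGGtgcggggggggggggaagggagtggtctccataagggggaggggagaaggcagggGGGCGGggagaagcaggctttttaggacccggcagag
Igfbp4, chr11:99040994-99041243, plus strand: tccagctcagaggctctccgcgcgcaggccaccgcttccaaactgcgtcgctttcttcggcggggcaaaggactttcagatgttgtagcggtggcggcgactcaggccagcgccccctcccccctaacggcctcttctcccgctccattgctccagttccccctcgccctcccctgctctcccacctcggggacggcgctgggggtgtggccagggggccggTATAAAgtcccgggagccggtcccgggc
Igfbp5, chr1:72874866-72875115, minus strand: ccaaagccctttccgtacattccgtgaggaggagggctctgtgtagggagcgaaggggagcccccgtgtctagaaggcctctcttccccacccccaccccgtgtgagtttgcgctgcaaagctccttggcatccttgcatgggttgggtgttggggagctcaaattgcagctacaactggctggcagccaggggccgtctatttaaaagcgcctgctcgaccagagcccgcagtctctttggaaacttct
Igfbp6, chr15:102143936-102144185, plus strand: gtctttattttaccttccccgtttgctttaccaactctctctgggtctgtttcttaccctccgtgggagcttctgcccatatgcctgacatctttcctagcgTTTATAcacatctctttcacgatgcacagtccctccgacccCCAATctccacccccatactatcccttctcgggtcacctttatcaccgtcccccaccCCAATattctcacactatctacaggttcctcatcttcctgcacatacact
The neighbours Igfbp2 and Igfbp5 do not look alike here: the Igfbp2 window holds 3 GC boxes and 1 androgen receptor half-site at 67.2% G and C, and that of Igfbp5 holds none of the 4 motifs at 58.8%. Igf1r has 2 GC boxes and the highest content of G and C of the 5, 77.6%. Igfbp4 has 1 TATA box, and Igfbp6 has 1 TATA box and 2 CCAAT boxes in the window with the lowest content, 49.6%. Over the same 250 bases of all 32851 promoters in the table, 12.4% held a TATA box, 32.7% a GC box, 16.1% the androgen receptor half-site and 33.8% a CCAAT box. The matches describe the letters only.

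The binding proteins spanned a wide range of levels. Averaged over the 12 libraries, Igfbp4 and Igfbp2 stood highest, at 223 and 211 scaled FPKM, followed by Igfbp5 at 174. Igfbp7 at 80.8, Igfbp3 at 62.5 and Igf1 at 57.3 formed a middle tier, and Igf1r at 13.0 and Igfbp6 at 11.7 stood lowest. The order of Igfbp4 and Igfbp2 depended on sex: Igfbp4 was above Igfbp2 in all 6 female libraries and below it in all 6 male libraries. Igfbp3 and Igf1 overlapped in range over the 12 libraries (41.3 to 81.5 and 26.6 to 66.2 scaled FPKM), as did Igf1r and Igfbp6 (10.7 to 16.5 and 4.51 to 25.7).

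**Figure D1:**
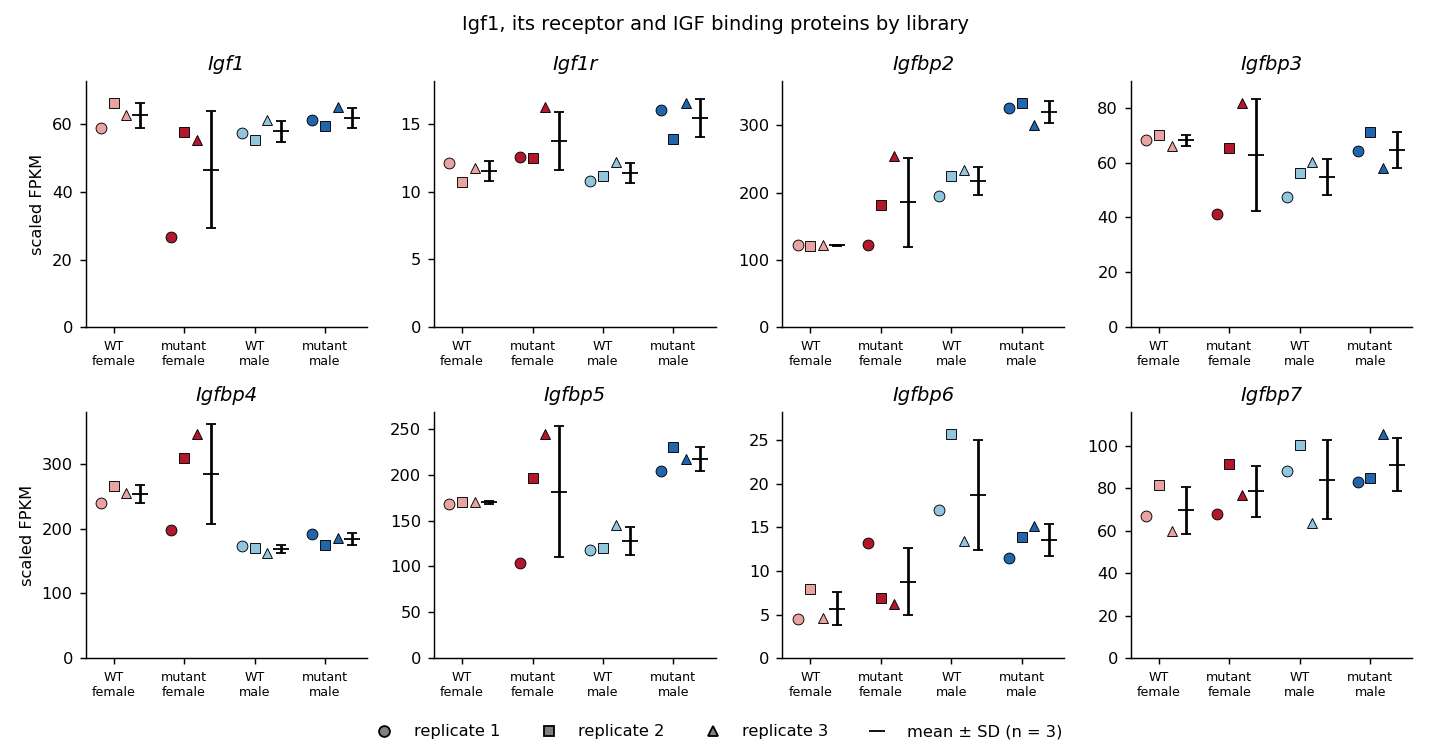
Scaled FPKM (linear axis from 0) of the 8 genes, 1 panel each, in the 12 libraries by group, with points for libraries and bars for group means ± SD (n = 3). Igfbp2 is highest in the 3 mutant males (301 to 333) and Igfbp4 is lower in the 6 males (162 to 193) than in the 6 females (197 to 346). Mutant female 1 lies far below the other libraries for Igf1, at 26.6.

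Males had more Igfbp2 and Igfbp6 and less Igfbp4 than females, and mutants had more Igf1r and Igfbp2 than wild type. A gene is said to be called where the limma test gave a Benjamini-Hochberg adjusted p under 0.05 over all 13904 genes. For the mutant against wild type, 2 of the 8 genes were called in males (Igf1r and Igfbp5, both higher), where 20.3% of all genes tested were called and 8.64% were called higher. In females 0 of 8 were called by limma, against 28.0% of all genes, with 2 at an unadjusted p under 0.05. Over both sexes 2 of 8 were called (Igf1r and Igfbp2, both higher), against 40.6% of all genes and 18.9% called higher. The share of the 8 genes that was called was thus close to the background in males and below it in females and over both sexes. Without mutant female 1 the counts were 3, 3 and 4 of 8, against 28.4%, 28.7% and 45.8% of all genes. A share of 8 genes moves in large steps, and no departure from the background was tested.

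Between the sexes the counts were again small, and their shares were not tested against those of all genes. In wild type, 2 of the 8 genes were called (Igfbp2 and Igfbp6, both higher in males), where 3.18% of all genes were called and 1.95% were called higher. In mutants 1 of 8 was called (Igfbp2, higher in males), against 7.49% of all genes and 3.98% called higher. Over both genotypes, a comparison added after the data had been seen, 3 of 8 were called (Igfbp2 and Igfbp6 higher and Igfbp4 lower in males), against 13.5% of all genes, of which 7.50% were higher and 6.01% lower as shares of all genes. The median log2 difference of the 8 genes was 0.14 for mutant against wild type over both sexes, beside 0.00 for all genes tested. After a correction of each library for GC content and transcript length it was 0.08, again beside 0.00.

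Igf1, the ligand, varied little in scaled FPKM across 11 of the 12 libraries. It stood at 58.9, 66.2 and 62.8 scaled FPKM in wild type females, 57.4, 55.2 and 61.2 in wild type males, and 61.2, 59.4 and 65.1 in mutant males. In mutant females it stood at 26.6, 57.7 and 55.4. All 3 mutant females lay below all 3 wild type females, and mutant female 1 was the lowest of the 12 libraries. The limma log2 difference between mutant and wild type was -0.50 in females (SE 0.22, adjusted p = 0.116), which was not called, and -0.15 (adjusted p = 0.164) without mutant female 1. It was 0.10 in males (SE 0.22, adjusted p = 0.798). Over both sexes it was -0.20 (adjusted p = 0.328), and 0.27 (adjusted p = 0.262) after a correction of each library for GC content and transcript length, neither called. The Igf1 transcript has the lowest GC content of the 8, and the correction moved the value to 0.05 in females, where the groups then overlapped, and to 0.48 in males (adjusted p = 0.240), where all 3 mutants then lay above all 3 wild types. The lower level in females was called by limma without mutant female 2, and with libraries scaled to their sums (-0.74, adjusted p = 0.0272). Igf1 was not called between the sexes in either genotype by limma (adjusted p = 0.831 in wild type and 0.207 in mutants). With libraries scaled to their sums it was called higher in males in mutants.

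Igf1r, the receptor gene, was higher in mutants over both sexes together. It stood at 12.1, 10.7 and 11.8 scaled FPKM in wild type females, 10.8, 11.1 and 12.2 in wild type males, 12.5, 12.4 and 16.2 in mutant females and 16.0, 13.9 and 16.5 in mutant males. All 6 mutant libraries lay above all 6 wild type libraries in scaled FPKM, by little for mutant females 1 and 2, and the ranges overlapped with FPKM as deposited, with libraries scaled to their sums and after the correction for GC content and length. Igf1r was the only 1 of the 8 genes whose genotypes did not overlap in scaled FPKM over both sexes, where 17.1% of all genes tested did not overlap and 6.80% lay higher in mutants. It rose by 0.33 on the log2 scale over both sexes, which is 1.25-fold (SE 0.08, limma adjusted p = 0.00619). In males it rose by 0.42 (SE 0.11, adjusted p = 0.0211), a call that was lost without wild type male 1, wild type male 2, mutant male 1 or mutant male 3 (adjusted p up to 0.0826). In females the value was 0.23 (SE 0.11, adjusted p = 0.135). After the same correction, the difference over both sexes was 0.20 (limma adjusted p = 0.0305) and that in males was 0.20 and no longer called (adjusted p = 0.161). With FPKM as deposited, the difference over both sexes was 0.20 (adjusted p = 0.214), on a scale where the median of all genes was -0.11. With libraries scaled to their sums, where that median was again -0.11, it was 0.21 (adjusted p = 0.0655). Male and female did not differ by a called amount (log2 difference 0.08 over both genotypes, SE 0.08, limma adjusted p = 0.560). With libraries scaled to their sums, Igf1r was called higher in males in mutants and over both genotypes. The median of all genes was then 0.31 and 0.20.

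Igfbp2, a binding protein that prefers IGF2, was higher in males than in females of each genotype. It stood at 121.7, 121.4 and 122.4 scaled FPKM in wild type females and 194.3, 225.4 and 234.0 in wild type males. In mutants it stood at 122.1, 181.4 and 253.9 in females and 325.6, 332.7 and 300.9 in males. The sexes did not overlap within either genotype (with FPKM as deposited they did in mutants), the 3 wild type females were nearly equal, and the 3 mutant females were spread from the wild type female level to above that of wild type males. Between the sexes the difference was 0.84 on the log2 scale over both genotypes, or 1.79-fold (SE 0.14, limma adjusted p = 0.00325). It was 0.83 in wild type (SE 0.20, adjusted p = 0.0489) and 0.84 in mutants (SE 0.20, adjusted p = 0.0292). The wild type call was lost on leaving out any 1 of 10 of the 12 libraries, with adjusted p up to 0.171, and the mutant call on leaving out any mutant male, with adjusted p up to 0.0807.

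By genotype, Igfbp2 rose by 0.55 in mutants over both sexes (1.46-fold, SE 0.14, limma adjusted p = 0.00953). The value was 0.56 in males (SE 0.20, adjusted p = 0.0711) and 0.54 in females (SE 0.20, adjusted p = 0.0626), neither of them called. Without mutant female 1 both were called, at 0.56 (adjusted p = 0.00741) in males and 0.81 (adjusted p = 0.0022) in females. After the correction for GC content and length, the difference over both sexes was 0.28 and not called (limma adjusted p = 0.189), whereas the sex difference was 0.92 (adjusted p = 0.00165). Igfbp2 has the highest GC content of the 8 transcripts, 62.1%. With FPKM as deposited, the genotype difference was 0.42 (adjusted p = 0.0952).

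Igfbp4, the substrate of the protease PAPP-A and the most abundant of the binding proteins in females, was lower in males. It stood at 240.1, 266.6 and 255.6 scaled FPKM in wild type females against 173.5, 169.9 and 162.2 in wild type males, and at 197.5, 309.9 and 346.5 in mutant females against 192.7, 174.5 and 186.5 in mutant males. All 6 males lay below all 6 females in scaled FPKM, the only 1 of the 8 genes for which this held, against 4.57% of all genes tested whose sexes did not overlap and 2.00% that lay lower in males. Mutant female 1 was the closest female library to the males, and the sexes overlapped with FPKM as deposited, with libraries scaled to their sums and after the correction for GC content and length. Over both genotypes Igfbp4 was lower in males by 0.59 on the log2 scale: the difference was -0.59 (SE 0.12, limma adjusted p = 0.00809). Within a genotype it was -0.59 in wild type (adjusted p = 0.0848) and -0.58 in mutants (adjusted p = 0.0541), not called, and without mutant female 1 both were called (adjusted p = 0.00127 and 0.000372, with -0.83 in mutants). With FPKM as deposited, the difference over both genotypes was -0.54 (adjusted p = 0.0562). Mutant and wild type differed by 0.13 over both sexes (adjusted p = 0.405), and by 0.25 without mutant female 1 (adjusted p = 0.00469), which was called.

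Igfbp6, which binds IGF2 far more tightly than IGF1, had the largest sex difference of the 8 genes in wild type and over both genotypes, though not in mutants, and the lowest mean level over the 12 libraries. It stood at 4.5, 7.9 and 4.6 scaled FPKM in wild type females and at 17.0, 25.7 and 13.4 in wild type males. In mutants it stood at 13.2, 6.9 and 6.2 in females and 11.5, 13.9 and 15.2 in males. The sexes did not overlap in wild type and overlapped in mutants through mutant female 1, the library with the highest female value. Males exceeded females by 1.63 on the log2 scale in wild type, or 3.09-fold (SE 0.30, limma adjusted p = 0.0146), and by 1.15 over both genotypes (SE 0.21, adjusted p = 0.00584). The wild type call was lost on leaving out wild type female 1, wild type female 3, wild type male 1 or wild type male 2, with adjusted p up to 0.0765. In mutants the value was 0.67 (SE 0.30, adjusted p = 0.200), and 0.99 without mutant female 1 (adjusted p = 0.0508). The difference between the 2 sex differences, which equals that between the mutant effects in each sex, was -0.96 (SE 0.43, adjusted p = 0.563).

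Igfbp5, a binding protein that attaches to the extracellular matrix, was higher in mutant than in wild type males. Wild type males had 118.2, 120.4 and 145.7 scaled FPKM of it, and mutant males 203.7, 230.6 and 216.9. In females it stood at 168.4, 170.3 and 170.8 in wild type and 104.1, 196.8 and 244.2 in mutants. The males did not overlap by genotype, whereas the mutant females lay on both sides of the wild type females. In males Igfbp5 rose by 0.76 on the log2 scale, or 1.70-fold (SE 0.24, limma adjusted p = 0.0423). The call was lost on leaving out any 1 of 9 of the 12 libraries, 3 of them wild type females that are not in the comparison but share its estimate of the spread, with adjusted p up to 0.130. It became stronger without mutant female 1 (adjusted p = 0.00155), when females were also called, at 0.37 (adjusted p = 0.0349). After the correction for GC content and length the difference in males was 0.65 (adjusted p = 0.119). Igfbp5 showed no called sex difference in wild type (-0.41, limma adjusted p = 0.384) or in mutants (0.34, adjusted p = 0.402), and without mutant female 1 that in wild type was called (adjusted p = 0.0375). With libraries scaled to their sums, that in mutants was called.

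Igfbp3, the main carrier of IGFs in blood, and Igfbp7, which binds IGFs weakly and is common in vessels, were called in no comparison in scaled FPKM with all 12 libraries weighted alike. With array weights Igfbp3 was called by genotype in males and by sex in wild type, and with libraries scaled to their sums Igfbp7 was called by sex over both genotypes. Igfbp3 ranged from 66.2 to 69.9 scaled FPKM in wild type females, 47.4 to 60.4 in wild type males, 41.3 to 81.5 in mutant females and 58.1 to 71.2 in mutant males. Its lowest library was mutant female 1, and the wild type males lay below the wild type females (limma log2 difference -0.32, SE 0.20, adjusted p = 0.415). Igfbp7 ranged from 60.1 to 81.8, 63.6 to 100.3, 67.8 to 91.4 and 82.8 to 105.5 scaled FPKM in the same order of groups, with overlap in every comparison. Its limma log2 difference was 0.15 between genotypes over both sexes (SE 0.13, adjusted p = 0.353) and 0.24 between sexes over both genotypes (SE 0.13, adjusted p = 0.243).

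**Figure D2:**
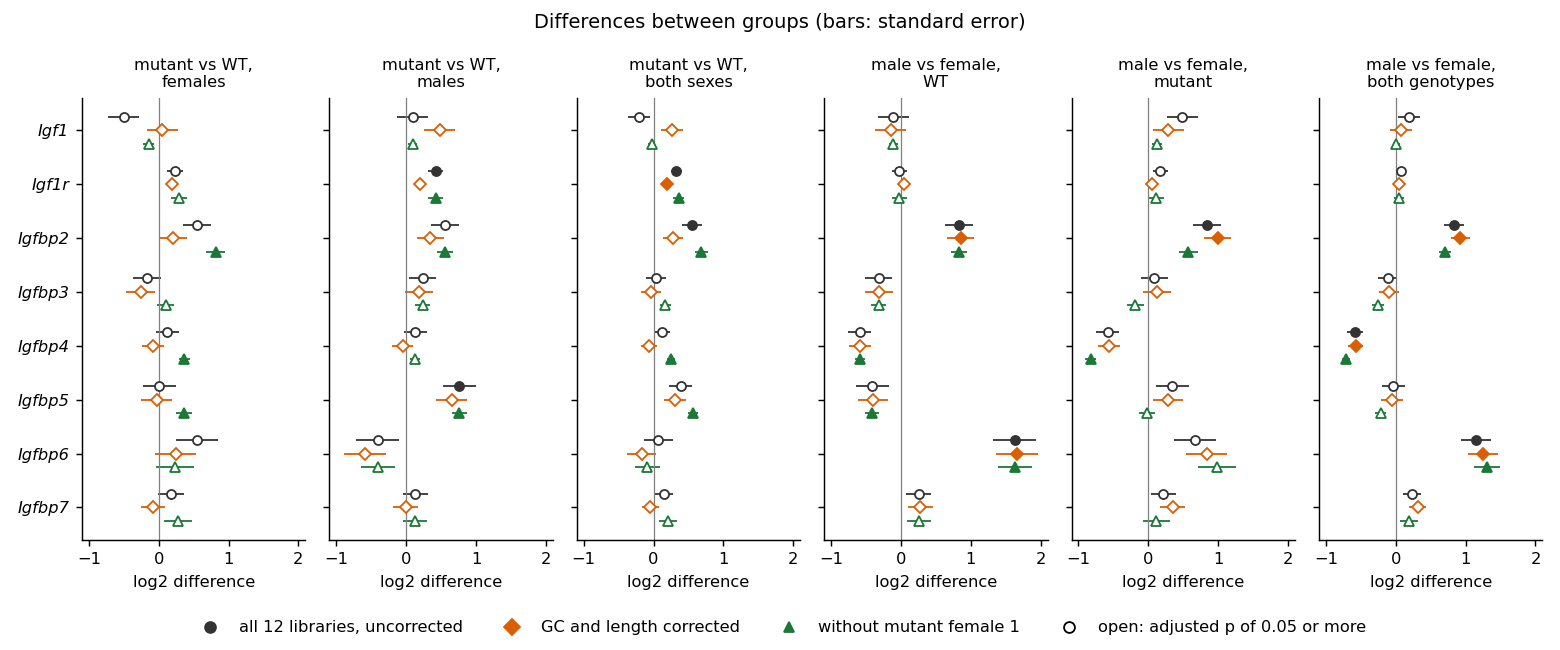
Log2 differences of the 8 genes with standard errors (horizontal axis) in 6 comparisons of genotype or sex, for all 12 libraries, after the correction for GC content and length, and without mutant female 1. Filled symbols are called genes and open symbols are not. The sex differences of Igfbp2, Igfbp6 and Igfbp4 over both genotypes keep their place under the correction (0.92, 1.25 and -0.58), while the genotype difference of Igfbp2 shrinks from 0.55 to 0.28.

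Leaving out mutant female 1 raised most counts. Besides the counts by genotype, those by sex were then 4 in wild type (7.15%), 2 in mutants (8.55%) and 3 over both genotypes (19.7%). After the correction for GC content and length, 0 of the 8 were called by genotype in males by limma, against 3.56% of all genes, with 2 at an unadjusted p under 0.05.

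Whether the mutant effect differed between the sexes was tested for each gene, and limma called 0 of the 8 and 0.0% of all genes tested. At an unadjusted p under 0.05 stood 2 of the 8 (Igfbp5, 0.75, and Igfbp6, -0.96) and 8.81% of all genes. The call of Igfbp5 in males and not in females is thus not shown to be a difference between them. Libraries of the groups compared did not overlap for 4 of the 8 genes in males (Igf1r, Igfbp2, Igfbp4 and Igfbp5, all higher in mutants), against 43.5% of all genes and 21.1% that lay higher, and for 2 in females (Igf1 lower and Igf1r higher), against 42.6%. Between the sexes this held for 5 of 8 in wild type (Igfbp2 and Igfbp6 higher in males, Igfbp3, Igfbp4 and Igfbp5 lower), against 31.8%, and for 3 of 8 in mutants (Igf1 and Igfbp2 higher, Igfbp4 lower), against 24.7%. With FPKM as deposited this held by genotype for Igfbp5 in males and Igf1 in females, and by sex for the same 5 genes in wild type and for 0 of 8 in mutants.

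The mixture of binding protein transcripts does not depend on the scaling between libraries, although a correction for GC content and length can move it. As a share of the summed FPKM of Igfbp2 to Igfbp7, Igfbp4 led in females, with 36.9% ± 0.910 in wild type and 35.6% ± 1.12 in mutants (SD, n = 3 libraries in each group here). In males Igfbp2 led, with 32.4% ± 2.01 in wild type and 35.9% ± 1.59 in mutants, and Igfbp4 held 25.1% ± 1.79 and 20.7% ± 1.37. The females had 17.7% ± 0.689 Igfbp2 in wild type and 22.9% ± 2.00 in mutants. Mutant female 1, low in several of these genes, had shares near those of the other mutant females for Igfbp2 and Igfbp4, at 22.4% and 36.2%.

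The ratio of Igfbp2 to Igfbp4 set the 4 groups apart with no overlap. It was 0.456 to 0.507 in wild type females, 0.585 to 0.733 in mutant females, 1.12 to 1.44 in wild type males and, in mutant males, 1.61 to 1.91. The mutant range thus lay above the wild type range of the same sex, and both male ranges above both female ranges. Igfbp2 was called higher and Igfbp4 lower in males over both genotypes, so the order by sex restates those calls. How often other pairs of genes set the 4 groups apart is not given. After the correction for GC content and length the 4 ranges still did not overlap and kept this order, at 0.461 to 0.518, 0.543 to 0.690, 1.16 to 1.49 and 1.63 to 1.92. The ratio of Igfbp5 to Igfbp4 was 1.06 to 1.32 in mutant males, above the 0.527 to 0.898 of the other 9 libraries, and 1.08 to 1.34 against 0.580 to 0.845 after the correction. Set against the ligand, the summed binding proteins were 10.8 to 12.6 times the FPKM of Igf1 in wild type (6 libraries) and 13.6 to 20.5 times in mutants (6 libraries), highest in mutant female 1. After the correction this separation was lost, with 12.8 to 15.1 times in wild type and 10.9 to 14.9 times in mutants. These ratios are descriptions and were not tested, and their corrected values were computed after the data had been seen.

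**Figure D3:**
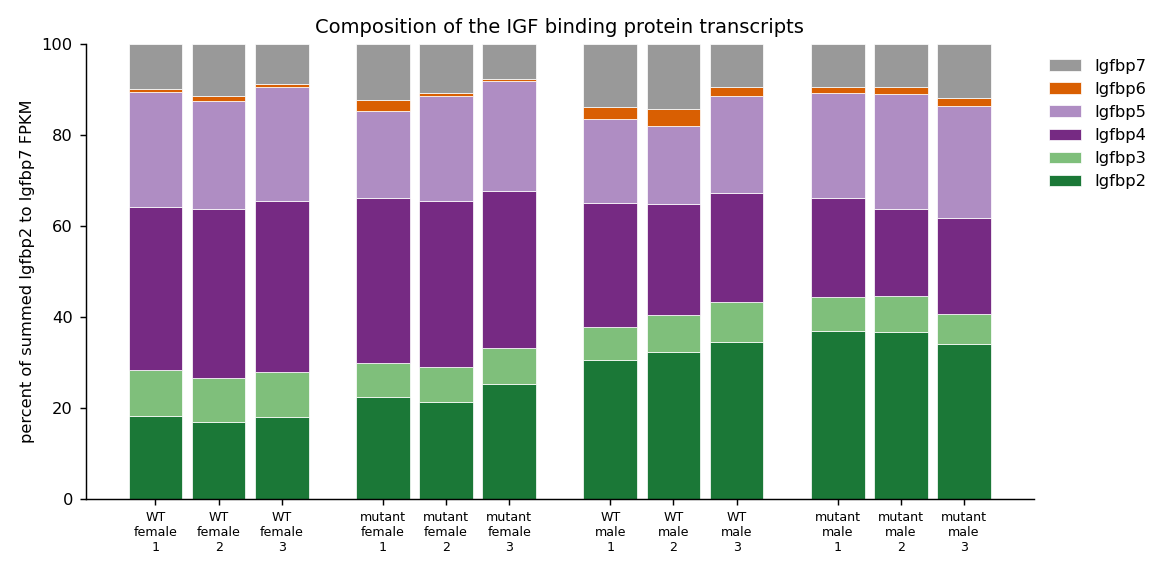
Share of each binding protein in the summed FPKM of Igfbp2 to Igfbp7 (percent), as stacked bars for the 12 libraries by group. Igfbp4 takes the largest share in the 6 female libraries (34.3% to 37.6%) and Igfbp2 in the 6 male libraries (30.4% to 37.0%).

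Markers of other tissues moved with these comparisons. Over both sexes, where 40.6% of all genes were called, 5 of 9 epithelium markers and 2 of 3 cartilage markers were higher in mutants. Lower in mutants were 6 of 9 skeletal muscle, 3 of 4 proliferation, 2 of 9 mesenchyme, 2 of 7 neural and 2 of 6 immune markers. Of the other lists, 1 blood marker was higher, 1 endothelium marker lower, 1 urogenital sinus marker higher and 1 lower, and 0 of the urothelium, smooth muscle and adipose markers were called by limma. The skeletal muscle markers of wild type males summed to 690 to 944 scaled FPKM and to 395 to 631 in the other 3 groups, and the epithelium markers to 288 to 390 in wild type and 316 to 922 in mutants. Between the sexes over both genotypes, where 13.5% of all genes were called, 4 of 9 skeletal muscle, 4 of 7 urogenital sinus, 2 of 3 cartilage, 2 of 9 epithelium and 1 of 7 neural markers were higher in males. Lower in males were 1 urogenital sinus, 1 epithelium and 1 immune marker, and 0 of the markers of the other 7 lists, the 9 mesenchyme markers among them, were called by limma. The mesenchyme sum ranged from 3997 to 4389 scaled FPKM in wild type females and from 3698 to 4325 in wild type males. The part of these tissues in the differences of the 8 genes was not tested.

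Of 48 other genes of the IGF system, 42 passed the filter, and 12 of these were called between the sexes over both genotypes (9 higher and 3 lower in males, 28.6%), against 13.5% of all genes. The shares of the 42 genes were not tested against those of all genes. Their list was chosen with earlier results of these data known. Htra1, a secreted protease that cuts IGF binding proteins, was 20.6 to 21.8 scaled FPKM in wild type females and 7.73 to 9.75 in wild type males. In mutants it was 18.7 to 29.9 in females and 7.21 to 17.7 in males, so that all 6 males lay below all 6 females, a separation that was lost with libraries scaled to their sums and after the correction for GC content and length. Its sex difference was -1.23 on the log2 scale (limma adjusted p = 0.00201). Stat5a, a transcription factor downstream of growth hormone and prolactin receptors, was higher in males by 0.99 (adjusted p = 0.000348), Pik3r1, a regulatory subunit of PI3K, by 0.76 (adjusted p = 0.000225) and the receptor adaptor Irs4 by 0.72 (adjusted p = 0.00303). Irs1, another adaptor, was lower in males (-0.42, adjusted p = 0.0149), as was the PI3K subunit Pik3r2 (-0.27, adjusted p = 0.00863). These 6 differences stayed called after the correction for GC content and length, under which 12.6% of all genes were called, between -1.19 for Htra1 and 1.01 for Stat5a. The median over the 42 genes was 0.03, beside 0.01 for all genes tested. Within a genotype, 3 of 42 were called in wild type (7.14%, against 3.18% of all genes), Htra1 lower and Stat5a and Pik3r1 higher in males. In mutants 7 of 42 were called (5 higher and 2 lower, 16.7%, against 7.49%), among them Grb14, an inhibitor of receptor signalling, at 0.78 (adjusted p = 0.00867).

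For mutant against wild type over both sexes, 18 of the 42 genes were called (12 higher and 6 lower, 42.9%), close to the 40.6% of all genes. The median of the 42 was 0.10, beside 0.00 for all genes, and 0.04 beside 0.00 after the correction for GC content and length. Among the falls, Pik3ca, a catalytic subunit of PI3K, fell by 0.45 on the log2 scale (limma adjusted p = 0.000299). After the correction for GC content and length it was still called, at -0.17, while the count over the 42 genes was 7 (3 higher and 4 lower), or 16.7%, against 17.5% of all genes.

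Igf2, the fetal ligand, was 127.3 to 180.2 scaled FPKM in wild type and, in mutants, 179.7 to 295.1 (6 libraries each), so that the ranges overlapped slightly. It rose by 0.47 (limma adjusted p = 0.00849), and the difference was 0.22 (adjusted p = 0.183) after the correction. Irs1 and Stat5a rose by 0.41 and 0.43 (adjusted p = 0.00604 and 0.0136) and were not called after it, at 0.27 and 0.15. In males 6 of 42 were called (2 higher and 4 lower, 14.3%, against 20.3% of all genes), led by Rptor, a subunit of the mTOR complex, at 0.48 and Igf2bp2, which binds Igf2 mRNA, at 0.36. The falls there included the kinase Jak2 at -0.35. After the correction Rptor, Igf2bp2 and Jak2 were not called in males, at 0.14, 0.31 and -0.18 (limma adjusted p = 0.275, 0.0521 and 0.2445). The count in males was then 2 of 42 (0 higher and 2 lower, 4.76%), against 3.56% of all genes. In females 13 of 42 were called (7 higher and 6 lower, 31.0%, against 28.0%), with Stat5a at 0.58, Irs1 at 0.43 and Tsc2, a brake on mTOR, at 0.33 leading the rises, and Pik3ca at -0.60 among the falls. Stat5a, Irs1, Tsc2 and Pik3ca were not called in females after the correction, at 0.28, 0.36, 0.105 and -0.23 (limma adjusted p from 0.0559 to 0.460). The scavenger receptor gene Igf2r and the insulin receptor gene Insr were called in no comparison (limma, adjusted p = 0.585 and 0.397 for the genotype over both sexes). Igfbp1 was at 0.0298 to 1.31 scaled FPKM and was not tested.

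**Figure D4:**
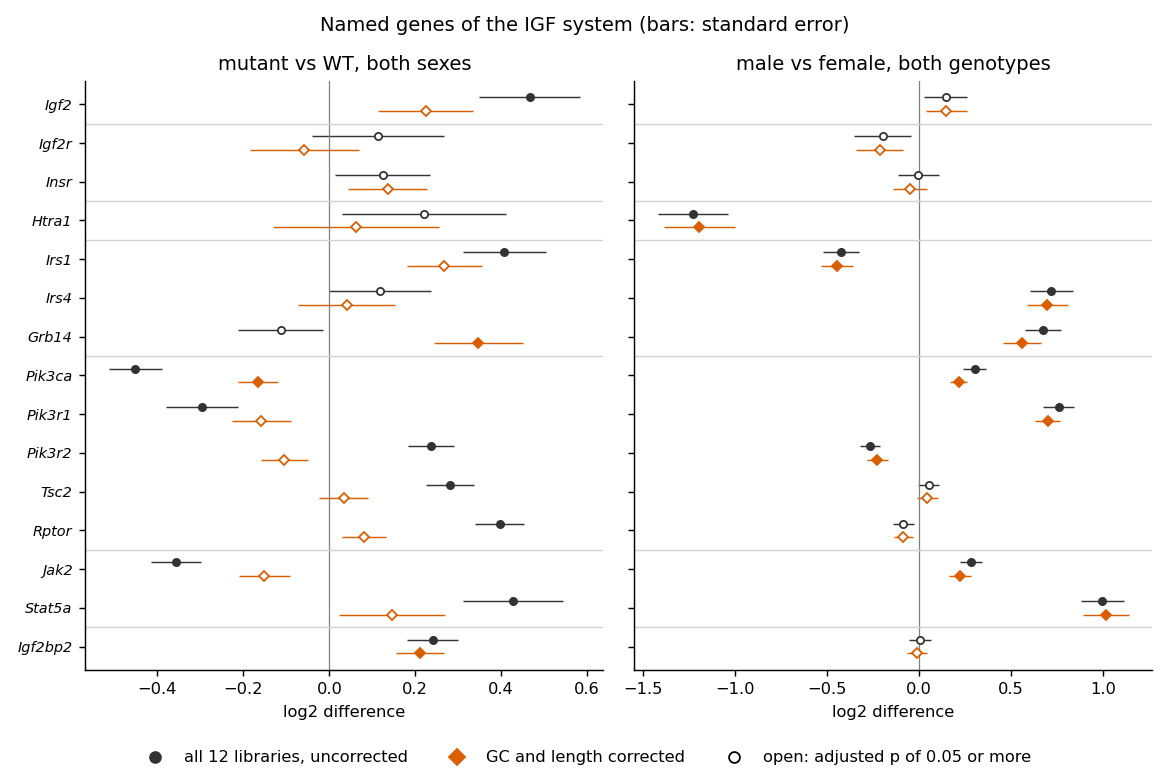
Log2 differences of the named and tested genes of the IGF system, ordered by role, for mutant against wild type over both sexes and for male against female over both genotypes, before and after the correction for GC content and length. Filled symbols are called genes and bars are standard errors. By genotype Pik3ca lies at -0.45 and Igf2 at 0.47, and Htra1 (-1.23) and Stat5a (0.99) at the ends by sex.

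For each of the 8 genes, the tested genes with the most similar pattern were found by Pearson's r of log2 values over the 12 libraries, which share groups and depth. For Igf1 these were the endothelial receptor gene Kdr (r = 0.968) and Lman1 (0.958), for Igf1r Top3b (0.961) and the transcription factor gene Tfap2a (0.954), and for Igfbp2 Fbxo10 (0.965) and Smoc1 (0.964). Igfbp3 was most like the growth factor gene Hgf (0.969) and Hpse2 (0.962), Igfbp4 most like Rerg (0.977) and Col13a1 (0.964), and Igfbp5 most like Gng7 (0.983) and Adamts15 (0.974). Igfbp6 was most like Ctnnbip1 (0.939) and Ly6a (0.936), and Igfbp7 most like Kctd17 (0.932) and Galnt10 (0.922). Of these 16 genes, 6 had their lowest value in mutant female 1 (Kdr, Lman1, Fbxo10, Hgf, Hpse2 and Gng7). Igf1, Igfbp3 and Igfbp5 also had their lowest value there. Each r includes that library and is not given without it, so the r of genes lowest there may rest on it.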

How the data were processed

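RNA was measured in 12 libraries of ribosome-depleted total RNA, sequenced as stranded single-end reads, per the labels. The authors deposited FPKM, per the file headers. The submitters' processing notes name cutadapt 4.1, STAR 2.7.10a, bedtools 2.30.0, Cufflinks 2.2.1 and the builds mm39 and mm10. Few gene ends (2.75%) matched GRCm38, so positions are given as mm39, with starts as in the table plus 1. Annotation and strand setting were not given in the sources used here. FPKM hold no read counts, so depth is relative, read from the step that 1 read makes in low values, without counting intervals.

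Libraries were scaled by their median ratios over 11897 genes that had 1 FPKM or more in all of them (divisors 0.748 to 1.131). The test was limma 3.58.1 (R 4.3.3) on log2 of scaled FPKM plus 0.5, which understates changes of low genes. It covered all 13904 genes that reached 1 FPKM in 3 or more libraries, with 4 group means, a trend of variance with level, 8 residual degrees of freedom, two-sided p and Benjamini-Hochberg adjustment, and was checked on simulated data. The GC and length correction was a loess fit per library over the 13735 genes with both values from GENCODE M21 transcripts. Other settings tried were the scaling, pseudocount, filter, trend, weights, samples in the fit, replicate block and each library left out. The genes and lists were chosen with earlier results of these data known. Other IGF genes were named by rule: always Igf2, Igf2r, Insr and Igfbp1, then the 3 largest called rises and falls of each comparison and the 2 genes most like each of the 8, passing over pseudogenes, short RNAs and gene models without a name. Some genes that the rule names are not reported here.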

Additional observations from a re-analysis of the deposited data

How the results depend on the processing

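The 3 sex calls over both genotypes (Igfbp2, Igfbp6 and Igfbp4) held on leaving out each of the 12 libraries, and so did the 2 genotype calls over both sexes (Igf1r and Igfbp2). Each call within 1 sex or 1 genotype was lost on leaving out at least 3 of the libraries in turn. Depth is known only in relative terms and is lower in all mutants. Same-numbered replicates deviated together little over all genes (18 pairs, correlation -0.226 to 0.317, median 0.012, 3 pairs over 0.1). The labels do not say whether the numbers pair libraries, and this check cannot decide it. With the replicate number as a block, 1 gene was called between the sexes in wild type in place of 2, and the other counts did not change. The cause of the changes below was not tested.

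With FPKM as deposited, the 8 genes held 0 calls by genotype in males and over both sexes, 1 by sex in wild type and 0 by sex in mutants. Mutant male 3 had the lowest scaling divisor, 0.748, and Rn7sk held 14.9% of its FPKM sum. Rn7sk held 13.8% in mutant male 1, 12.2% in wild type male 1 and 0.0% elsewhere. The deposited Igf1r (12.4 FPKM) and Igfbp2 (225.2) of mutant male 3 lay within the wild type male ranges. Those of mutant males 1 and 2 lay above. For Igfbp4, mutant male 3 (139.6) lay below the wild type male range and mutant male 2 (188.1) within it. The part of this in the lost calls was not tested. With libraries scaled to their sums without Rn7sk there was 1 call by genotype in females and 1 over both sexes. By sex there were 5 calls in mutants (Igf1, Igf1r, Igfbp2, Igfbp5 and Igfbp6). Over both genotypes there were also 5 (Igf1r, Igfbp2, Igfbp4, Igfbp6 and Igfbp7). The median of all genes then lay at -0.21 in females by genotype and at 0.31 by sex in mutants. By sex in wild type, 1 gene was called with a pseudocount of 0.1, with no filter, with a filter at 5 FPKM and with no trend, and 4 with only the groups compared. With no filter there was 1 call by genotype in males and 0 by sex in mutants, where only the groups compared also gave 0. Array weights gave 4 calls over both sexes by genotype, 4 in males and 1 in females, and 5 by sex in wild type and 2 in mutants. The correction for GC content and length, with or without the replicate block, left 0 in males by genotype and 1 over both sexes. On leaving out 1 library the counts ran from 2 to 4 by genotype over both sexes and from 0 to 3 within each sex, from 0 to 4 by sex in wild type and from 0 to 2 in mutants, and all the highest counts were reached without mutant female 1.

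Signs turned only for differences that were not called. As deposited, by genotype these were Igfbp4 -0.03, Igf1 -0.06 and Igfbp7 -0.02 in males, Igfbp5 -0.09 in females, and Igfbp4 0.00, Igfbp3 -0.09 and Igfbp6 -0.05 over both sexes. By sex they were Igf1r 0.05 in wild type and Igfbp5 0.01 over both genotypes, and for the difference of effects Igfbp4 -0.05 and Igfbp2 -0.04. Scaled to sums they were Igf1r 0.00, Igfbp4 -0.12, Igfbp5 -0.23 and Igfbp7 -0.06 in females, Igfbp4 0.00, Igfbp3 -0.09 and Igfbp6 -0.05 over both sexes, Igfbp7 0.18 for the difference of effects, Igf1r 0.07 by sex in wild type, and Igfbp3 0.09 and Igfbp5 0.18 by sex over both genotypes. With array weights they were Igfbp7 -0.04 in males, Igfbp6 -0.10 over both sexes, Igfbp4 -0.16 for the difference of effects and Igfbp3 0.00 by sex in mutants. Corrected for GC content and length, with or without the replicate block, they were Igfbp4 -0.05 and Igfbp7 -0.01 in males, Igfbp4 -0.08, Igf1 0.05, Igfbp5 -0.03 and Igfbp7 -0.08 in females, Igfbp4 -0.07, Igf1 0.27, Igfbp3 -0.04, Igfbp6 -0.17 and Igfbp7 -0.04 over both sexes, Igfbp7 0.07 for the difference of effects and Igf1r 0.04 by sex in wild type.

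On leaving out each library in turn, signs also turned for differences that were not called with all 12 libraries. By genotype the values ran from -0.38 to 0.10 for Igfbp3, -0.04 to 0.37 for Igfbp4 and -0.25 to 0.37 for Igfbp5 in females, from -0.05 to 0.27 for Igfbp7 in males, and from -0.07 to 0.17 for Igfbp3 and -0.09 to 0.20 for Igfbp6 over both sexes. By sex they ran from -0.07 to 0.02 for Igf1r in wild type, from -0.18 to 0.30 for Igfbp3 and -0.02 to 0.60 for Igfbp5 in mutants, and from -0.21 to 0.09 for Igfbp5 over both genotypes. For the difference of effects they ran from -0.26 to 0.27 for Igfbp2, -0.24 to 0.17 for Igfbp4 and -0.23 to 0.10 for Igfbp7. At an end of 10 of these 13 ranges stood the fit without mutant female 1, where Igfbp4 and Igfbp5 were called in females.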
